A study of Mus musculus with 20 samples.

Results

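The 40 genes described here encode proteins of the cardiac sarcomere, its Z-disc and M-band, and the muscle ubiquitin ligases that act on them. They were taken by symbol from the 23420 genes of the deposited count table, 40 of 40 were found, and 40 of 40 passed the filter on low counts, 1 CPM or more in 10 or more mice, where CPM are counts scaled to the library size after TMM adjustment. RNA-seq was carried out on mRNA from whole hearts of male wild-type C57BL/6J mice (C57BL/6 in the labels) aged 9 weeks. Of these, 10 were fed a control diet and 10 were made iron-deficient and anemic (IDA) by an iron-deficient diet. The diets were given for 6 weeks from the age of 3 weeks, and the iron content of the deficient diet is below 2 ppm in one label and above it in another. Each library came from 1 heart, so that p-values measure the spread between mice.

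The sarcomere is the contractile unit of heart muscle. Myosin thick filaments are held at the M-band, actin thin filaments are anchored at the Z-disc by alpha-actinin, and titin spans the distance between them as a spring. Calcium binding to troponin on the thin filament allows myosin heads to pull, and ligases of the MuRF family and atrogin-1 mark sarcomeric proteins for degradation.

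Of the 40 genes, 13 were higher and 7 lower in IDA hearts than in control hearts (adjusted p under 0.05), and 20 did not pass (quasi-likelihood test of edgeR, with p-values of all 13590 tested genes adjusted by the method of Benjamini and Hochberg). Among all tested genes 35.0% were called higher and 32.5% lower by the same test, against 32.5% and 17.5% of the 40 genes. How these shares compare turned with the analysis, as they were 37.5% and 30.0% with the gene length correction (31.5% and 23.5% of all tested genes). Their median log2 fold change was 0.08, against 0.02 for all tested genes. The largest difference was that of *Nebl*, the gene of the Z-disc protein nebulette. Over its 7 annotated exons, the only ones counted, it fell to less than 50% of its control level. Titin (*Ttn*), *Xirp2* and *Cmya5* fell, and *Obsl1*, *Trim63* and *Trim54* rose. With a correction for gene length, *Nebl* remained lower and *Obsl1* higher, while *Ttn* and *Cmya5* were called higher instead. *Myh6* (0.45) and *Mybpc3* (0.32) were called higher as well, and *Xirp2*, *Trim63* and *Trim54* did not pass. Mean raw counts of *Myh6* and *Mybpc3* in IDA hearts were 98.1% and 102% of control, and both genes lie where counts level off. No gene of the 40 had groups that did not overlap in log2 CPM, while 4.97% of tested genes did so with IDA mice higher and 6.28% with IDA mice lower.

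Properties of the libraries moved with diet as well, and their part in these differences was not tested. Total counts were 6797180 to 8960688 in control mice and 6682177 to 7833916 in IDA mice, and the IDA median was 86.12% of the control median. The length slope of a mouse, that of its log2 deviations from the mean of all 20 mice on gene length, was 0.020 to 0.20 per doubling of exonic length in control mice and -0.25 to -0.025 in IDA mice. The zero of this scale is set by the centring, and the groups differed without overlap (means of 0.127 and -0.127, two-sided permutation p of 2e-05). For this reason, the tests were repeated with a gene length correction, in which a smooth trend on exonic length was subtracted from each mouse before the test. By this correction 15 of the 40 genes were higher and 12 lower, and the median log2 fold change was 0.05. The lower calls depended on the filter on low counts, as without it the correction called 14 of the 15 higher genes and only 3 of the 12 lower ones, *Nebl*, *Myot* and *Trim55*. The correction removes any trend on length, whatever its origin. Markers of red blood cells also rose (5 of 5 tested, and 4 with the correction), with a summed level of 145 to 251.9 CPM in control and 262 to 862 CPM in IDA mice. With their mean as covariate 3 of the 40 genes were higher (*Obsl1*, *Trim54* and *Trim63*) and 4 lower (*Nebl*, *Ttn*, *Xirp2* and *Cmya5*), against 24.6% and 24.8% of all tested genes.

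The counts were made after removal of PCR duplicates, and counts per base of exonic length levelled off near 2. The highest value of any tested gene of at least 200 bases was 2.06 to 2.39 in each mouse. Of the 40 genes, 21 had a mean of at least 1 count per base and did so in 20 of 20 mice, whereas 1.99% of all tested genes reached that mean. In 17 of these 21 genes the mean raw count of IDA hearts was within 5% of the control mean, although the IDA libraries were smaller. With TMM scaling, 19 of the 21 had a positive log2 fold change, 11 were called higher and 0 lower by edgeR (0 also at an unadjusted p below 0.05 and by DESeq2). The median over the 21 was 0.12, against 0.15 for the 270 tested genes at this density. For these genes, the counts can understate a difference in either direction. The gene length correction takes no account of counts per base, so that it can also call a difference where levelled counts barely differ.

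**Figure D1:**
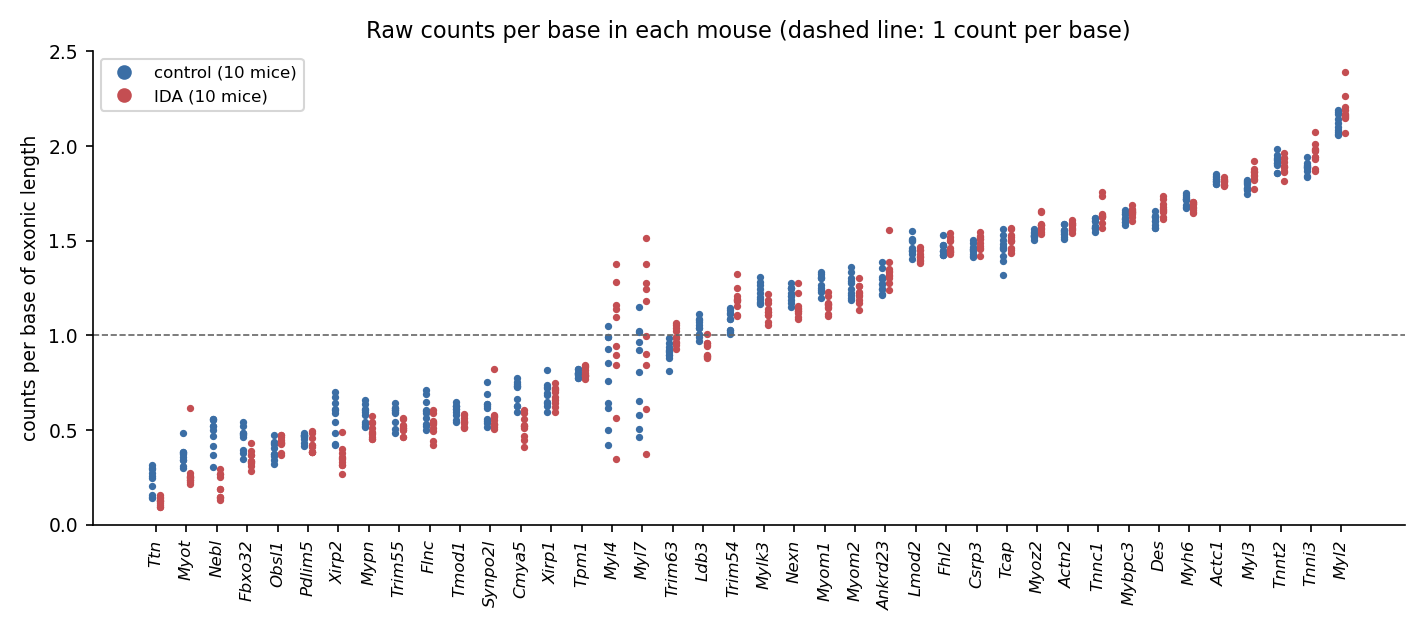
Raw counts per base of exonic length (vertical axis, linear) for the 40 genes (horizontal axis, ordered by their mean), with 1 point per mouse, control in blue and IDA in red. The 21 genes at the right lie above 1 count per base in every mouse, with overlapping groups, whereas *Myl4* and *Myl7* spread widely within both groups.

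To show the sequence in front of the genes that the results turn on, the RefSeq promoter windows (GRCm38.p6, which is mm10, from 250 bases before to 50 after a transcription start) of *Nebl*, *Ttn*, *Obsl1* and *Trim63* are printed 5' to 3'. *Nebl* has 4 such windows, of which the start farthest upstream and the next one are given. Capitals mark matches on either strand to the MEF2 box, the CArG box, the MCAT element CATTCC and the TATA box TATAAA.
*Nebl* (chr2:17731085-17731384, minus strand): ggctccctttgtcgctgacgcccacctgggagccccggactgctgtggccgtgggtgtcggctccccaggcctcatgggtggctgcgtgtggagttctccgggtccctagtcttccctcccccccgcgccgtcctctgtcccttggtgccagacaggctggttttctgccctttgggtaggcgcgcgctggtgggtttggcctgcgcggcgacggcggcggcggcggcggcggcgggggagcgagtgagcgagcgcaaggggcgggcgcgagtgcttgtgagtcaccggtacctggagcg
*Nebl* (chr2:17670116-17670415, minus strand): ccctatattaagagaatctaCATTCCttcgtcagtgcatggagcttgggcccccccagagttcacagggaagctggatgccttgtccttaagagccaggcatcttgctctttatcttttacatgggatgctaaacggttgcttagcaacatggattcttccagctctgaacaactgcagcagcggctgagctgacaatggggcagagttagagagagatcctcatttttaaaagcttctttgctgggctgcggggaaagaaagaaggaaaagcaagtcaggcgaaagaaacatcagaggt
*Ttn* (chr2:76982498-76982797, minus strand): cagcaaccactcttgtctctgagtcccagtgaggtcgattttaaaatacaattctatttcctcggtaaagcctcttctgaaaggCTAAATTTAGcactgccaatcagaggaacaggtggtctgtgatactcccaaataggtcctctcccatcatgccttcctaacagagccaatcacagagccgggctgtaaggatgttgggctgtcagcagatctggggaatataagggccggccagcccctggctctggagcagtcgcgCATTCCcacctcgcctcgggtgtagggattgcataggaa
*Obsl1* (chr1:75506403-75506702, minus strand): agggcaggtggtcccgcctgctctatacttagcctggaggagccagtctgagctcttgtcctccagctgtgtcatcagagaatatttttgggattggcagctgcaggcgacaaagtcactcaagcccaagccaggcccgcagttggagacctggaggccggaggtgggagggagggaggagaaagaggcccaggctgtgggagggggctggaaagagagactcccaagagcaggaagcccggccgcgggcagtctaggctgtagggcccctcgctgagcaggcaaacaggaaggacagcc
*Trim63* (chr4:134314870-134315169, plus strand): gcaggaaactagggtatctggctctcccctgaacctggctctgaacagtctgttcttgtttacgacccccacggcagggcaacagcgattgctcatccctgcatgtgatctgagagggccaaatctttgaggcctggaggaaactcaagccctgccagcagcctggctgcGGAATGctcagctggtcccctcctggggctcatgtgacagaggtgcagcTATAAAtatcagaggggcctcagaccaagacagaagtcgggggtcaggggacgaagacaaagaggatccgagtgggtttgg

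Windows were found for 33 of the 40 genes (46 windows). A MEF2 box, the site of the muscle factor MEF2, was in 6 of the 46 windows (13.0%) and in 1.86% of all 32851 windows. The CArG box, bound by serum response factor, was in 9 (19.6%, against 1.63%), and the MCAT element CATTCC, bound by TEAD factors, was in 17 (37.0%, against 14.7%). Windows of a gene can overlap, as for *Ldb3* and *Flnc*, so that a site can be counted more than once. By gene, 5 of the 33 held a MEF2 box, 7 a CArG box and 15 a CATTCC, and no share by gene was taken over all windows. The shorter motifs had shares of 78.3% against 72.3% for the E-box CANNTG, 19.6% against 11.2% for the GATA motif AGATAA, 19.6% against 19.6% for the hypoxia element ACGTG and 4.35% against 3.65% for the FOXO element GTAAACA. The share with the TATA box TATAAA was 15.2% against 13.6%. ACGTG can lie within a CANNTG, and TATAAA can overlap a MEF2 box. In the printed windows, *Ttn* held a MEF2 box and a CATTCC, *Trim63* a CATTCC and a TATAAA, and one of the *Nebl* windows a CATTCC, while that of *Obsl1* held none of the 4 motifs in capitals. Among the *Nebl* windows not printed, that from 17462807 to 17463106 held a CArG box, and that from 17526081 to 17526380 none of the 4. These matches describe the letters of the windows, and binding was not measured.

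In the thick filament and titin, 2 of 8 genes were higher and 1 was lower. *Ttn*, on chromosome 2 of mm10 from 76703984 to 76982547 (minus strand), encodes the giant spring protein of the sarcomere and has 104320 exonic bases, the most of the 40 genes. Its level was 1852 to 4299 CPM in control hearts (median 3339) and 1237 to 2550 CPM in IDA hearts (median 1780). Every IDA mouse lay below the control mean, and the groups overlapped. The log2 fold change was -0.79 (standard error, SE, 0.14, adjusted p = 4.54e-05), so that *Ttn* stood at 0.577 times its control level. The sign turned with the gene length correction, to 0.57 (SE 0.08, adjusted p = 8.30e-06), and the groups no longer overlapped. The next longest of the 40 genes has 11971 exonic bases, and this SE leaves out the uncertainty of the fitted trend at the length of *Ttn*. Among control mice the *Ttn* level followed the length slope of the mouse (Pearson's r = 0.949, adjusted p = 0.00156, Spearman's rho = 0.939, adjusted p = 0.00264, n = 10, permutation test, 12 relations of this kind, added after the values were seen), and r was 0.935 without the 2 mice farthest from the median slope. In IDA mice r was 0.447 (rho = 0.442, permutation test, adjusted p = 0.24 and 0.291), and -0.11 without 2 such mice. For *Xirp2*, r was 0.807 in control mice (permutation test, adjusted p = 0.00621, and 0.0528 for rho) and 0.453 in IDA mice (adjusted p = 0.24). The slope relations of *Obsl1* (r = -0.523 in control and -0.495 in IDA mice), *Fbxo32* (0.384 and 0.642) and *Trim63* (-0.595 and -0.089) did not pass.

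The heavy chain *Myh6*, the motor of the adult mouse heart, had 1184 to 1560 CPM in control hearts (median 1336) and 1252 to 1605 CPM in IDA hearts (median 1481). The groups overlapped almost entirely, and the log2 fold change of 0.06 (SE 0.06, adjusted p = 0.32) did not pass. *Myh6* was called lower with log2 library size as covariate (-0.095, edgeR, adjusted p = 0.0066) and higher with library size alone (0.12, adjusted p = 0.028). The ventricular regulatory light chain *Myl2* was the densest of the 40 genes, with 2.16 counts per base. It had 156 to 202 CPM in control hearts (median 171) and 170 to 212 CPM in IDA hearts (median 200.3), a log2 fold change of 0.14 (SE 0.05, adjusted p = 0.0264). Its mean raw count was 1341 in control and 1387 in IDA hearts, 103% of control, and with the gene length correction it was lower in IDA (-0.22, adjusted p = 0.00049), a call that was lost without the filter on low counts (-0.061, adjusted p = 0.35). The ventricular essential light chain *Myl3* gave 0.14 and, with the correction, -0.17 (-0.047 without the filter, adjusted p = 0.51). With log2 library size as covariate both genes turned sign and lost their calls (-0.017 and -0.024, adjusted p = 0.62 and 0.40). Myosin-binding protein C (*Mybpc3*), which tunes crossbridge cycling, had 0.12 on the log2 scale (adjusted p = 0.0533) and *Mylk3*, the cardiac myosin light chain kinase, one of -0.019. With the correction these were 0.32 (adjusted p = 0.000258) and 0.041 (adjusted p = 0.53), and that of *Myh6* was 0.45. At 1.70 (*Myh6*) and 1.64 (*Mybpc3*) counts per base, the mean raw counts of these 2 genes in IDA hearts were 98.1% and 102% of control.

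The atrial light chains *Myl7* and *Myl4* had the highest log2 fold changes of the 40 genes without the gene length correction and did not pass the test. *Myl7* had 33.9 to 89.8 CPM in control hearts (median 61.8) and 32.7 to 111 CPM in IDA hearts (median 91.1), a log2 fold change of 0.42 (SE 0.20, adjusted p = 0.0615). *Myl4* had 46.2 to 131 CPM in control (median 86.4) and 45.2 to 151 CPM in IDA hearts (median 128), a log2 fold change of 0.38 (SE 0.19, adjusted p = 0.0836). With the correction they were at 0.047 and 0.063 (adjusted p = 0.86 and 0.80), and *Obsl1* and *Ttn* were the highest. *Myl7* and *Myl4* were called higher with library size alone (0.48 and 0.44, edgeR, adjusted p = 0.035 and 0.047). TMM factors from genes under 0.1 counts per base also called them higher (0.59 and 0.55, edgeR, adjusted p = 0.0080 and 0.011). Both varied over mice more than most of the 40 genes, with coefficients of variation of 29.7% to 32.0%, where the median was 8.37% in control and 8.44% in IDA mice. They rose and fell together over mice, with r = 0.991 in control and 0.993 in IDA mice (rho = 1.00 in each, n = 10). There were 12 such relations in all, within the groups, and for this pair the adjusted permutation p was 3e-05 for r and 4e-05 for rho in each group. *Myl7* also followed the mean of the 6 tested atrial markers, with r = 0.983 in control and 0.957 in IDA mice (rho = 0.939 and 0.976, permutation test, adjusted p for r = 7.20e-05 and 3e-05). Without the 2 mice farthest from the median, r was 0.968 and 0.95. The atrial markers themselves gave 1 higher and 2 lower genes of 6, and their summed level was 472 to 888 CPM in control and 447 to 1024 CPM in IDA hearts. In whole hearts, a larger atrial share of the sample and more RNA per atrial cell cannot be told apart.

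**Figure D2:**
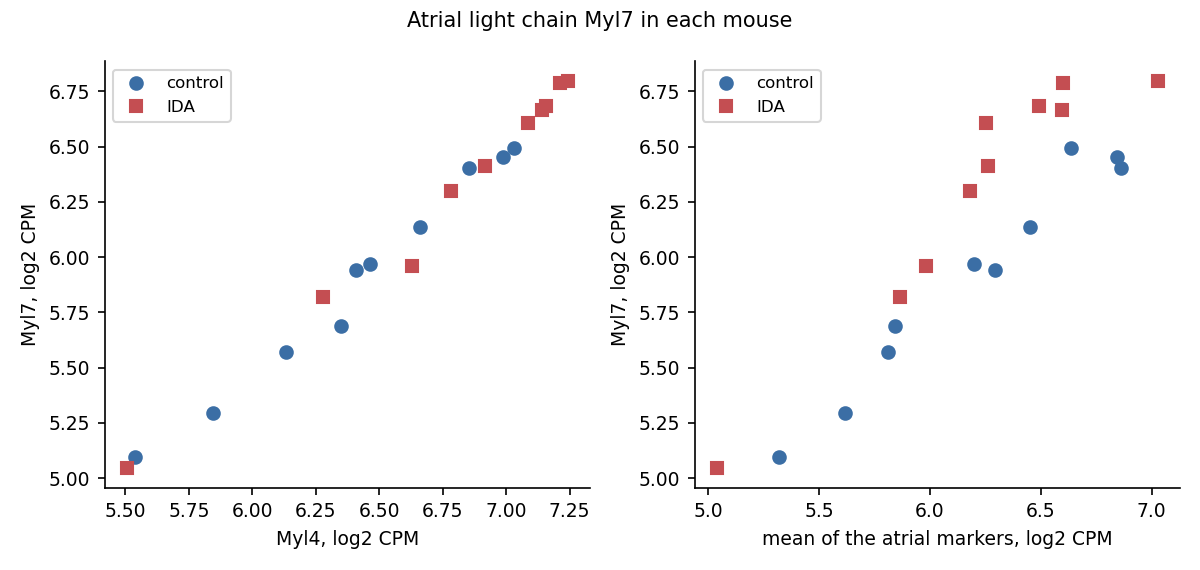
Log2 CPM of *Myl7* (vertical axis) against that of *Myl4* (left) and against the mean of the 6 atrial markers (right) in 10 control mice (blue circles) and 10 IDA mice (red squares). In both groups *Myl7* follows the other quantity (r between 0.957 and 0.993), and the lowest mouse of each group is near the other at the lower left.

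In the thin filament, 2 of 7 genes were higher and 0 were lower by edgeR with TMM scaling (0 lower also at an unadjusted p below 0.05 and by DESeq2). Troponin I (*Tnni3*), the inhibitory subunit, had 180 to 233.5 CPM in control hearts (median 198) and 198 to 245 CPM in IDA hearts (median 232). Its log2 fold change was 0.15 (SE 0.05, adjusted p = 0.0181), and 7 of 10 IDA mice were above the control mean. Troponin C (*Tnnc1*), the calcium-binding subunit, also rose by 0.14 (adjusted p = 0.0155). With log2 library size as covariate neither call held and both signs turned (-0.0093 and -0.0048, adjusted p = 0.78 and 0.87). Troponin T (*Tnnt2*), which ties the complex to tropomyosin, had 279 to 361 CPM in control (median 308) and 290.2 to 363 CPM in IDA hearts (median 341), and 0.08 (SE 0.05, adjusted p = 0.20) did not pass. Cardiac actin (*Actc1*, 0.08), tropomyosin (*Tpm1*, 0.10) and leiomodin 2 (*Lmod2*, 0.05), which lengthens thin filaments, did not pass either. *Tmod1*, which caps their pointed ends, had 210.2 to 241.1 CPM in control (median 226) and 185 to 251.4 CPM in IDA hearts (median 220), a log2 fold change of -0.05 (SE 0.05, adjusted p = 0.34). Its exons overlap *Tstd2* by 1287 bases, and counting without strand does not separate them. *Actc1* (-0.072), *Tnnt2* (-0.074) and *Lmod2* (-0.091) were called lower with log2 library size as covariate (edgeR, adjusted p = 0.012 to 0.018). The same genes and *Tpm1* were called higher with library size alone (0.097 to 0.16, edgeR, adjusted p = 0.0016 to 0.035). *Tmod1* was at -0.14 with the covariate and at 0.00062 with library size alone. With the gene length correction, *Tnni3* (-0.17), *Tnnc1* (-0.20), *Tnnt2* (-0.17) and *Actc1* (-0.14) were lower and *Tpm1* (0.19) higher at adjusted p-values of 0.000664 to 0.0348. The 4 lower genes had 1.62 to 1.92 counts per base, and without the filter on low counts 0 of the 4 were called by edgeR (-0.091 to -0.043, adjusted p = 0.19 to 0.54, with a lowest unadjusted p of 0.106). *Tmod1* (-0.020) and *Lmod2* (-0.075) did not pass with the correction.

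At the Z-disc, 5 of 13 genes were higher and 3 lower. *Nebl*, on chromosome 2 from 17346734 to 17731068 (minus strand), encodes nebulette, a nebulin-like protein that binds actin at the Z-disc. Its level was 135 to 218 CPM in control hearts (median 191) and 50.8 to 136 CPM in IDA hearts (median 83.4). Only the highest IDA mouse and the lowest control mouse met, and 10 of 10 IDA mice were below the control mean. The log2 fold change was -1.13 (SE 0.15, adjusted p = 1.04e-06), or 0.456 times the control level. Corrected for gene length, it was -1.09 (SE 0.14, adjusted p = 2.32e-06). *Nebl* has 2980 exonic bases in 7 annotated exons, and only reads on these were counted, by gene symbol. Its values therefore do not cover exons of nebulette outside these, and transcript forms were not told apart. The gene length correction used this annotated length. *Nebl* had 0.34 counts per base, near the middle of the 40 genes in annotated length and below the density at which counts saturate. Over 17 alternative settings its log2 fold change lay between -1.29 and -0.97 and was called in 17, the only one of the 40 genes called with the same sign in all 17. Leaving out 1 mouse at a time gave -1.23 to -1.07, with 20 of 20 fits calling it. Within groups, its level followed the length slope of the mouse in control (r = 0.878, rho = 0.794, permutation test, adjusted p = 0.00348 and 0.0347) and in IDA mice (r = 0.865, rho = 0.891, permutation test, adjusted p = 0.00568 and 0.0075), and r was 0.638 and 0.738 without the 2 mice farthest from the median slope.

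*Myot*, the gene of the actin crosslinker myotilin, had 85.7 to 132 CPM in control hearts (median 100.1) and 69.6 to 169 CPM in IDA hearts (median 75.04). The log2 fold change was -0.30 (SE 0.13, adjusted p = 0.0482), and -0.38 with the gene length correction (adjusted p = 0.0152). One IDA mouse, IDA 4, was the highest of all 20, and the other 9 lay between 69.6 and 90.0 CPM. Without IDA 4 the log2 fold change was -0.47 (adjusted p = 8.29e-06). The call was lost when any of 15 other mice was left out, with adjusted p-values up to 0.093. Myopalladin (*Mypn*), which links nebulin-type proteins to alpha-actinin, fell by 0.12 (adjusted p = 0.0474) and was higher with the correction (0.19, adjusted p = 0.00326). Its first call was lost when any of 12 mice was left out (adjusted p up to 0.0902) and with library size alone (-0.070, adjusted p = 0.13).

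The 5 higher Z-disc genes were *Ankrd23*, *Myoz2*, *Tcap*, *Csrp3* and *Actn2*, with log2 fold changes of 0.12 to 0.16. With log2 library size as covariate none of the 5 was called, and 4 turned sign (-0.031 to -0.0093), with *Ankrd23* at 0.047 (adjusted p = 0.19). *Ankrd23*, a stretch-responsive ankyrin repeat protein that binds titin, was the highest of them. It had 297 to 365 CPM in control hearts (median 324) and 326 to 386 CPM in IDA hearts (median 375), a log2 fold change of 0.16 (SE 0.04, adjusted p = 0.00332), with 9 of 10 IDA mice above the control mean. With the gene length correction it was 0.032 and did not pass (adjusted p = 0.54). Alpha-actinin (*Actn2*, 0.12), the main crosslinker of the Z-disc, was called higher with the correction too (0.17, adjusted p = 0.0168), but its first call was lost when any of 14 mice was left out (adjusted p up to 0.13). Calsarcin (*Myoz2*), telethonin (*Tcap*) and muscle LIM protein (*Csrp3*) were lower with the correction, at -0.12 to -0.16, and none of the 3 was called without the filter on low counts (-0.056 to -0.032, adjusted p = 0.40 to 0.66). Each of these 5 had 1.31 to 1.56 counts per base. The other 5 Z-disc genes, *Ldb3*, *Pdlim5*, *Nexn*, *Synpo2l* and *Fhl2*, lay between -0.08 and 0.11 and did not pass. With the correction *Pdlim5* was higher by 0.40 (adjusted p = 4.37e-06) without overlap of the groups, and *Ldb3* (0.30) and *Synpo2l* (0.17, not called without the filter, adjusted p = 0.0551) were higher with overlap, while *Nexn* (-0.012) and *Fhl2* (-0.088) did not pass.

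**Figure D3:**
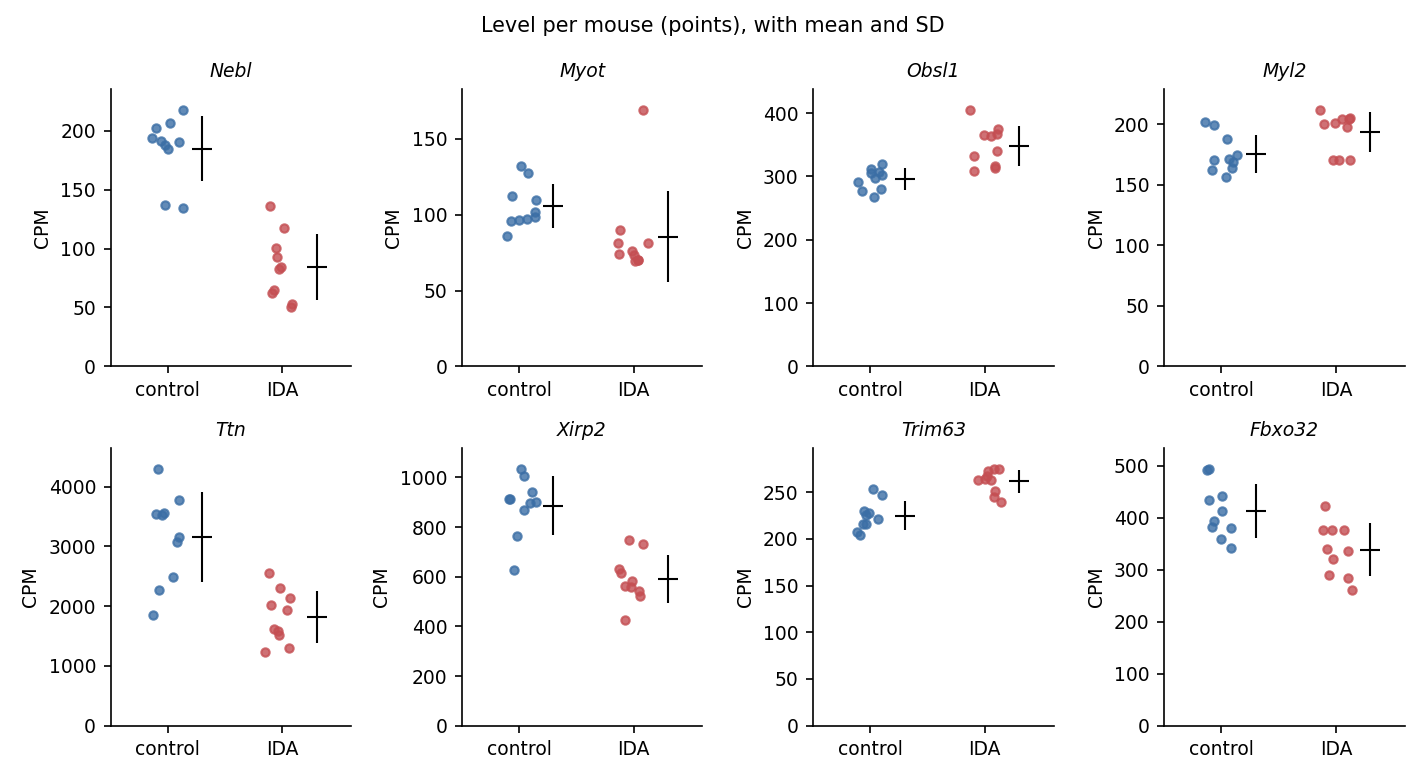
CPM (vertical axes, from 0) of 8 of the genes in each of 10 control (blue) and 10 IDA (red) mice, with mean and SD as a black bar beside the points. *Nebl* is at 135 to 218 CPM in control and 50.8 to 136 CPM in IDA hearts, where the groups meet at 1 mouse of each, and *Myl2* and the ligase genes overlap between the groups as well.

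Around the Z-disc, *Xirp2* and *Cmya5* fell and *Des* rose among 5 genes. *Xirp2*, a Xin-repeat actin-binding protein of the intercalated disc and Z-disc, had 626 to 1035 CPM in control hearts (median 906) and 426 to 748 CPM in IDA hearts (median 571). Every IDA mouse was below the control mean, and the log2 fold change was -0.58 (SE 0.09, adjusted p = 6.75e-06). Corrected for gene length, it was 0.11 and did not pass (SE 0.07, adjusted p = 0.22). *Cmya5*, which encodes myospryn, a desmin-binding anchor of protein kinase A, had 923 to 1141 CPM in control (median 1094) and 640 to 1123 CPM in IDA hearts (median 880.1). Its log2 fold change was -0.33 (SE 0.07, adjusted p = 0.000386) and turned to 0.33 with the correction (SE 0.06, adjusted p = 0.000157). After *Ttn* these are the longest of the 40 genes, with 11971 and 11848 exonic bases. The exons of *Cmya5* share 2570 bases with other annotated genes. Desmin (*Des*), the intermediate filament that ties Z-discs together, had 395 to 521 CPM in control (median 439) and 443 to 544 CPM in IDA hearts (median 513), a log2 fold change of 0.14 (SE 0.05, adjusted p = 0.0187), and 0.06 with the correction (adjusted p = 0.39). With log2 library size as covariate it was -0.010 (adjusted p = 0.71). Filamin C (*Flnc*, -0.09) and *Xirp1* (0.08) did not pass, and were higher with the correction (0.48 and 0.44).

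Read against each other in the same mouse, the paralogs *Xirp1* and *Xirp2* diverged. The ratio of their counts per base, *Xirp1* over *Xirp2*, was 1.22 in control and 1.93 in IDA hearts (geometric means, n = 10 each). The difference of the log2 ratios was 0.66 (two-sided permutation test, adjusted p = 0.00012 over 6 ratios), with 10 of 10 IDA mice above the control mean. With the gene length correction it was 0.34 (permutation test, adjusted p = 0.00228). *Xirp1* and *Flnc*, both of which bind at sites of myofibril damage, were related over IDA mice (r = 0.868, rho = 0.891, permutation test, adjusted p = 0.000823 and 0.00254) and r was 0.819 without the 2 mice farthest from the median. In control mice r was 0.223 (rho = 0.212, permutation test, adjusted p = 0.60 and 0.611), and the difference between the groups was not tested. The relation of *Xirp1* to *Xirp2* did not pass in either group (r = 0.015 in control and 0.49 in IDA mice, rho = -0.10 and 0.527, permutation test, adjusted p for r = 0.97 and 0.205). Without the 2 mice farthest from the median, r was 0.588 and 0.0123.

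At the M-band, 1 of 3 genes was higher. *Obsl1*, on chromosome 1 from 75485825 to 75506452 (minus strand), encodes obscurin-like 1, which links titin to myomesin. It had 267 to 320.1 CPM in control hearts (median 299.5) and 308 to 406 CPM in IDA hearts (median 351). In 10 of 10 IDA mice the level was above the control mean, and the groups overlapped at their edges. The log2 fold change was 0.24 (SE 0.05, adjusted p = 0.000167). Corrected for gene length, it was 0.60 (SE 0.08, adjusted p = 1.71e-06) and the groups did not overlap. With 5770 exonic bases and 0.415 counts per base, *Obsl1* was the only one of 12 genes over 5000 bases that was called higher without the correction, where 5 were lower. Its sign was the same in 17 of 17 alternative settings (0.14 to 0.60), and it was called in 15.

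Myomesin 1 (*Myom1*) and myomesin 2 (*Myom2*), which crosslink the thick filaments, did not pass. *Myom1* had 843 to 1036 CPM in control (median 924) and 817 to 1058 CPM in IDA hearts (median 930.3), a log2 fold change of -0.04 (SE 0.05, adjusted p = 0.47), and *Myom2* gave 0.05. The ratio of *Myom1* to *Myom2* per base was 1.01 in control and 0.953 in IDA hearts, a log2 difference of -0.09 (two-sided permutation test, adjusted p = 0.00476), and 10 of 10 IDA mice were at or below the control mean. Both genes lie above 1 count per base (1.22 and 1.24), where counts can understate a difference. The spread of that ratio was 0.046 and 0.055 (SD of log2 values). With the correction the difference was -0.026 and did not pass (permutation test, adjusted p = 0.44). Both genes were higher with the correction (0.30 and 0.33), so that 3 of 3 M-band genes were then called higher.

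Of 4 muscle ubiquitin ligase genes, 2 were higher and 1 was lower. *Trim63*, on chromosome 4 from 134315120 to 134329629, encodes MuRF1, which ubiquitinates myosin and troponin I. It had 204 to 253.1 CPM in control hearts (median 224) and 239.7 to 275 CPM in IDA hearts (median 263). Every IDA mouse was above the control mean and 2 control mice reached into the IDA range. The log2 fold change was 0.22 (SE 0.04, adjusted p = 5.70e-05), and 0.08 with the gene length correction (SE 0.04, adjusted p = 0.0933), which passed without the filter on low counts (0.12, adjusted p = 0.0392). *Trim54*, the gene of MuRF3, had 193 to 248.7 CPM in control (median 215) and 221 to 275 CPM in IDA hearts (median 258), a log2 fold change of 0.23 (SE 0.05, adjusted p = 0.000167), and 0.03 with the correction (adjusted p = 0.52). Leaving out any 1 mouse kept both calls. *Trim55*, the gene of MuRF2, was at -0.08 (adjusted p = 0.0844), and lower with the correction (-0.24, adjusted p = 0.000319).

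*Fbxo32*, on chromosome 15 from 58175879 to 58214892 (minus strand), encodes atrogin-1, the F-box ligase subunit induced in muscle wasting. Its level was 342 to 494 CPM in control hearts (median 404) and 261 to 423 CPM in IDA hearts (median 338). The log2 fold change was -0.29 (SE 0.08, adjusted p = 0.00357), with 9 of 10 IDA mice below the control mean, and 0.16 with the correction, which did not pass (SE 0.07, adjusted p = 0.0732). TMM factors from genes under 0.1 counts per base gave -0.12, which did not pass either (edgeR, adjusted p = 0.19). *Trim63* has 1886 exonic bases and *Fbxo32* 6936. Their ratio per base, *Fbxo32* over *Trim63*, was 0.497 in control and 0.349 in IDA hearts, a log2 difference of -0.51 (two-sided permutation test, adjusted p = 0.00012) with 10 of 10 IDA mice below the control mean. With the correction it was 0.073 (permutation test, adjusted p = 0.44). The relation of *Trim63* to *Fbxo32* over mice did not pass (r = 0.401 in control and 0.569 in IDA mice, rho = 0.455 and 0.661, permutation test, adjusted p for r = 0.30 and 0.13), and without the 2 mice farthest from the median r was 0.61 and 0.273.

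The remaining ratios did not pass. *Myl2* (2.16 counts per base), *Myl3* (1.82) and *Myh6* (1.70) lie where counts level off in every mouse, so that ratios to them describe these counts and not relative transcript levels. *Myl7* over *Myl2* was 0.366 in control and 0.439 in IDA hearts and *Myl4* over *Myl3* 0.416 and 0.487, with log2 differences of 0.27 and 0.23 (two-sided permutation test, adjusted p = 0.43 each). *Myh6* over *Myh7*, the slow heavy chain that marks cardiac stress in rodents, was 3.76 in control and 3.88 in IDA hearts (log2 difference 0.046, permutation test, adjusted p = 0.86). Without IDA 4, which had the most *Myh7* of the IDA mice, the difference was 0.19 (permutation test, adjusted p = 0.0465). The CPM of *Myl2* and *Myl3* correlated with r = 0.986 in control and 0.97 in IDA mice (n = 10, with no test, since both share the library size as divisor). Their raw counts varied by 1.37% to 3.87% (coefficient of variation within a group), against 8.70% to 9.41% for the adjusted library size, and the log2 CPM of either gene correlated with log2 library size at -0.99 to -0.90. For the raw counts r was 0.699 and 0.869.

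**Figure D4:**
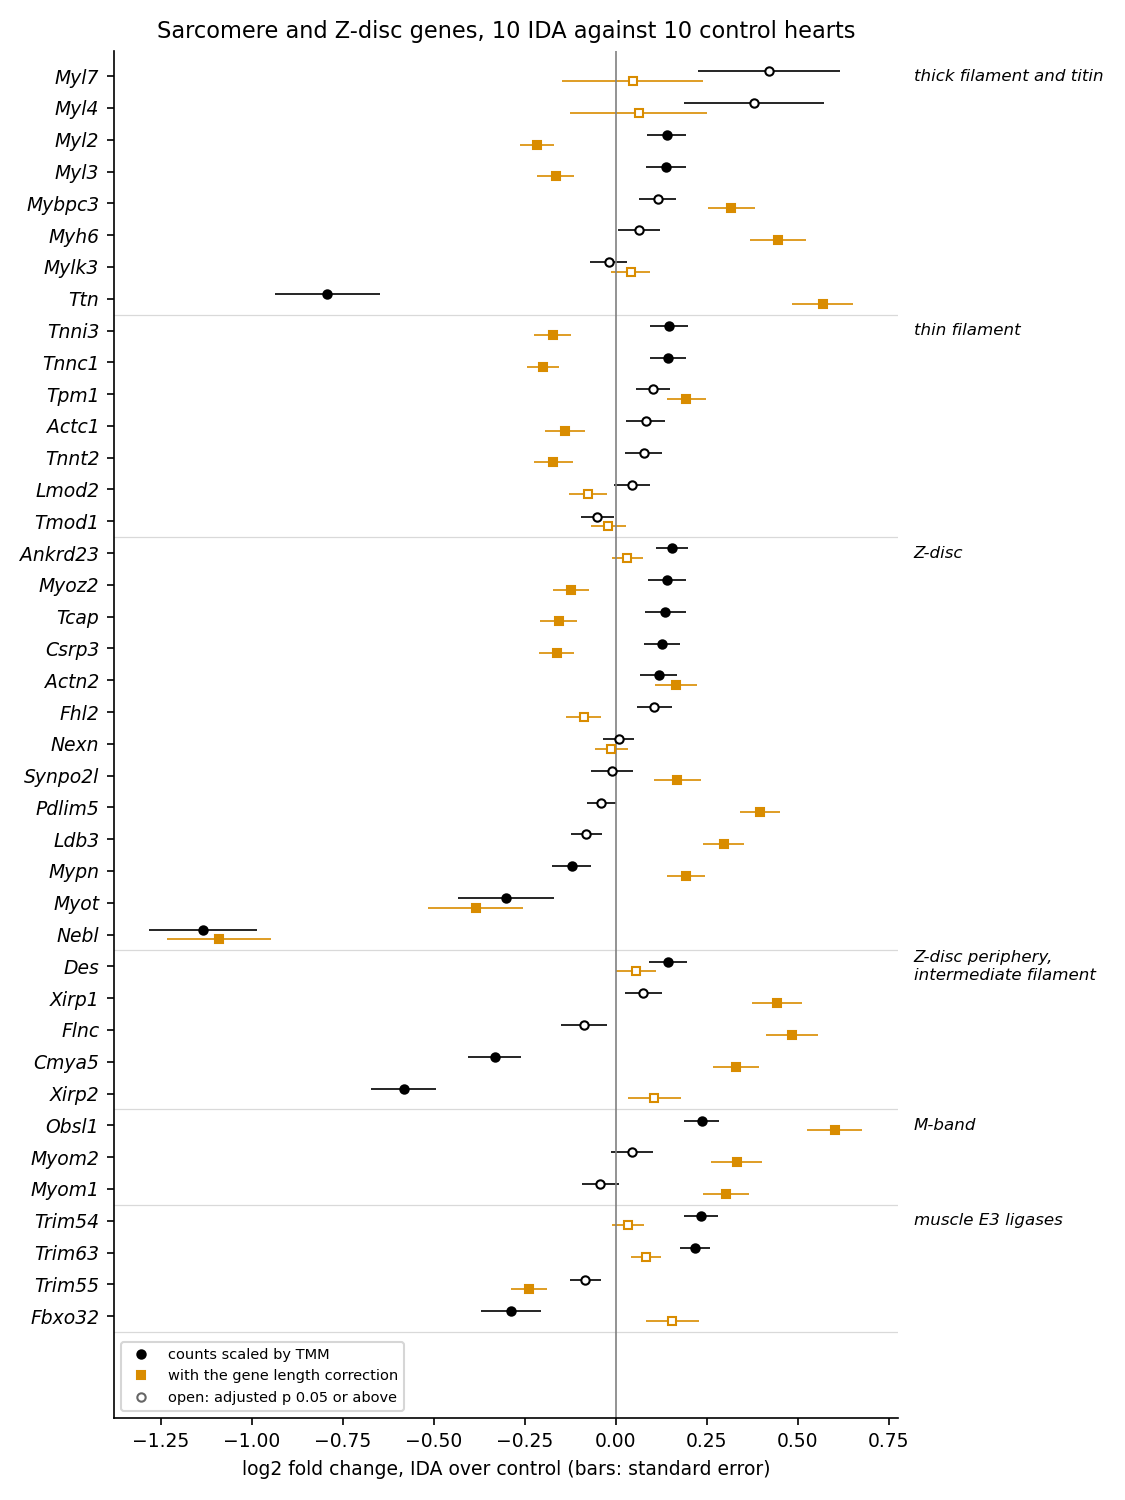
Log2 fold change of IDA over control (horizontal axis) with SE for each of the 40 genes by role, with TMM scaling (black circles) and with the gene length correction (orange squares); open symbols have an adjusted p of 0.05 or above. *Nebl* and *Myot* are lower and *Obsl1* and *Actn2* higher by both, while *Ttn*, *Cmya5* and *Mypn* change from lower to higher.

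Across the 40 genes, the log2 fold change fell with exonic length (across genes, which are not independent replicates, Spearman's rho = -0.691), as it did across all tested genes (-0.628). Of 8 genes of up to 1000 bases, 6 were higher and 0 lower by edgeR (0 also at an unadjusted p below 0.05 and by DESeq2). Of 20 genes over 1000 and up to 5000 bases, 6 were higher and 2 lower, the latter *Nebl* and *Myot*. Among 12 genes over 5000 bases, 1 was higher and 5 lower. With the gene length correction the relation turned, to a rho of 0.783, with 0 higher and 6 lower of the 8 short genes and 10 higher and 0 lower of the 12 long ones (both counts of 0 by edgeR, and 0 also at an unadjusted p below 0.05). Without the filter on low counts, that correction gave a rho of 0.67, with 0 of the 8 short genes lower by edgeR (0 also at an unadjusted p below 0.05) and 10 of the 12 long ones higher. A correction for length and counts per base together left a rho of 0.606. Only 4 of the 40 genes had the same call in the same direction by both analyses, *Actn2* and *Obsl1* as higher and *Nebl* and *Myot* as lower, 10 had a call in the opposite direction (3 without the filter on low counts, *Ttn*, *Cmya5* and *Mypn*), and 7 were called by neither. With the correction, the groups did not overlap for *Ttn*, *Pdlim5* and *Obsl1*, each higher in IDA, against 3.02% of all tested genes higher and 2.12% lower.

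**Figure D5:**
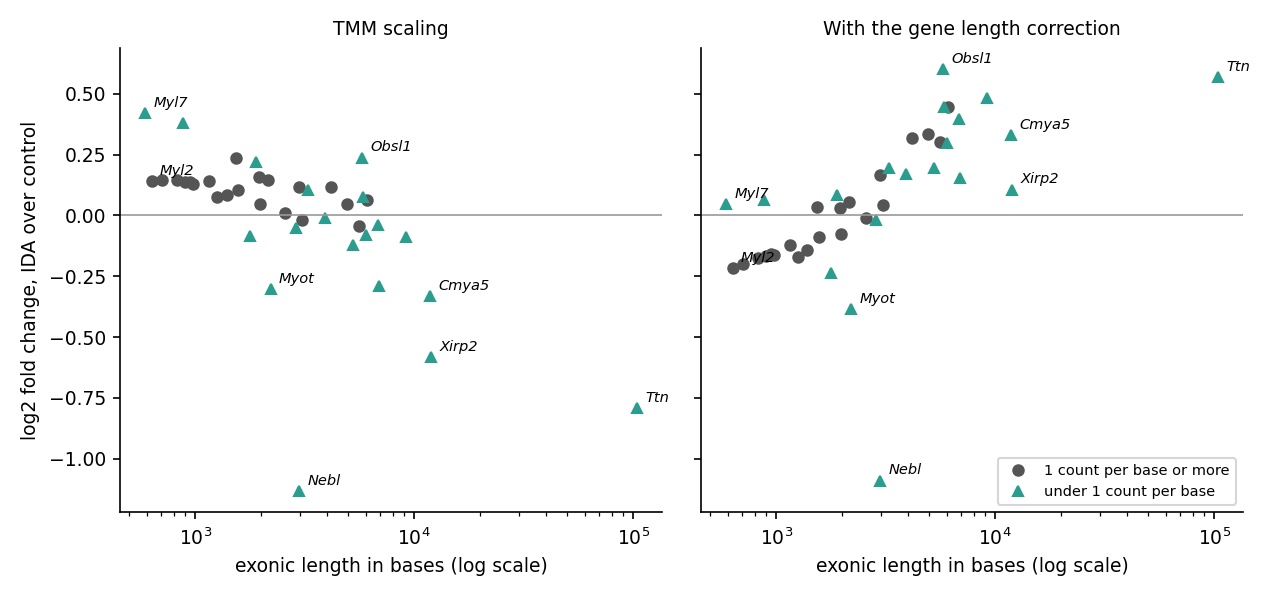
Log2 fold change of IDA over control (vertical axis) against exonic length (horizontal axis, log scale) for the 40 genes, with TMM scaling (left) and the gene length correction (right); circles have 1 count per base or more, triangles less. The slope turns from falling (rho = -0.691) to rising (0.783). *Nebl*, placed at its annotated 2980 bases, lies apart from both trends near -1.1. Over mice, however, its level followed the length slope within both groups (r = 0.878 in control and 0.865 in IDA mice).

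The scaling of the libraries also set how the calls divided. With TMM, 13 genes were higher and 7 lower. With library size alone these were 23 and 5 (40.4% and 29.0% of all tested genes), with TMM factors from genes under 0.1 counts per base 28 and 4 (49.8% and 21.7%), with raw counts 3 and 15 (21.1% and 36.1%), and with log2 library size as covariate 3 and 16 (29.1% each). Where edgeR and DESeq2 both had to give an unadjusted p below 0.01, 5 were higher and 5 lower (30.6% and 29.2% of all tested genes). The median of all tested genes was 0.19 by the factors from low-density genes and 0.02 by TMM on all genes, and the 28 higher genes are to be read against that shift. The column names of the mice fall in a lower and an upper run of numbers, whose meaning is not stated. In the lower run (5 control and 7 IDA mice) 20 genes were higher and 4 lower (30.2% and 28.7% of all tested genes), and in the upper run (5 control and 3 IDA mice) 0 were higher and 9 lower by edgeR (2 higher at an unadjusted p below 0.05, and 2 by DESeq2), against 19.4% and 24.1% of all tested genes. *Nebl* was at -1.14 and -1.12 in these runs, *Ttn* at -0.77 and -0.94, *Xirp2* at -0.51 and -0.74, *Fbxo32* at -0.13 and -0.59, *Obsl1* at 0.24 and 0.19 and *Trim63* at 0.30 and 0.11. The log2 ratio of *Xirp1* to *Xirp2* differed by 0.65 and 0.67 between the diets in the lower and upper run, that of *Fbxo32* to *Trim63* by -0.43 and -0.70, and that of *Myom1* to *Myom2* by -0.10 and -0.064. The ratios that did not pass differed by 0.19 and 0.50 (*Myl7* to *Myl2*), 0.18 and 0.44 (*Myl4* to *Myl3*) and 0.0031 and 0.24 (*Myh6* to *Myh7*). For correlations, 6 mice or more of 1 group were found in 1 run only, the 7 IDA mice of the lower run. There r was 0.992 for *Myl4* and *Myl7*, 0.993 for *Myl7* and the atrial markers, 0.771 for *Xirp1* and *Flnc* and 0.844 for *Nebl* and the length slope, and 0.717 for *Trim63* and *Fbxo32*, 0.259 for *Xirp1* and *Xirp2* and 0.282 for *Ttn* and the length slope (n = 7, no test). Leaving out control 8 alone reduced the 13 higher genes to 5, while 4432 of all 13590 tested genes were higher in that fit (4760 with all mice). The study excluded 1 mouse of each group because of sample contamination, and its text does not name them. All 20 were therefore kept here, with the excluded ones among them. In the 100 fits that left out 1 mouse of each group, 4 to 19 genes were higher and 5 to 11 lower. Of the 13 higher genes, *Ankrd23*, *Obsl1*, *Trim54* and *Trim63* were called in 100 of these fits. The other 9 were called in 37 (*Actn2*), 46 (*Tcap*), 50 (*Csrp3*), 51 (*Myl2*), 53 (*Myl3*), 67 (*Des*), 71 (*Myoz2* and *Tnni3*) and 87 (*Tnnc1*) of the 100. Of the 7 lower genes, *Myot* was called in 13, *Mypn* in 35 and the other 5 in 100.

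Other genes of the same structures, with relatives from smooth muscle and other cells, were counted from lists that exclude the 40. The first list held further sarcomere proteins and such relatives, among them *Myl6*, *Myl9*, *Mylk*, *Actn1*, *Actn4* and *Flna*. Of its 41 tested genes, 14 were higher and 7 lower, and with the gene length correction 16 and 4. Whole hearts do not show which cells these counts came from. The lowest were *Palld* (-0.88, adjusted p = 4.61e-06), *Synpo2* (-0.81, adjusted p = 4.73e-07) and *Mylk* (-0.67, adjusted p = 3.29e-06), and each was also lower with the correction (-0.75, -0.36 and -0.17). Palladin and synaptopodin 2 are actin-bundling proteins of the Z-disc. The highest of those called were *Ankrd2* (0.97, adjusted p = 0.0184, at a mean of 0.802 CPM in control and 1.55 CPM in IDA hearts), the smooth muscle light chain *Myl9* (0.51, adjusted p = 1.19e-05) and the Z-disc adaptor *Pdlim7* (0.48, adjusted p = 3.04e-07). With the correction these were 0.70 (adjusted p = 0.0886, not passed), 0.24 (adjusted p = 0.00993) and 0.53 (adjusted p = 5.84e-07). Of 14 chaperones and assembly factors, 9 were higher and 0 lower by edgeR (0 also at an unadjusted p below 0.05 and by DESeq2), and with the correction 3 and 2. The small heat shock proteins *Hspb3* (0.39) and *Hspb2* (0.33) and the co-chaperone *Stub1* (0.33) were the highest of these, and of the 3 only *Stub1* was called with the correction (0.15, adjusted p = 0.007). Among 17 further muscle ubiquitin ligases, 4 were higher and 8 lower, and with the correction 4 and 5. *Cbl* was the lowest (-2.02, adjusted p = 2.92e-07, and -1.71 with the correction), followed by *Traf6* (-0.67 and -0.33) and *Fbxo40* (-0.48 and -0.51). *Klhl40*, a stabilizer of thin filament proteins, was the highest (0.54, adjusted p = 2.13e-06, and 0.50 with the correction), followed by *Neurl2* (0.47 and 0.20) and *Asb2* (0.15 and 0.15).

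Cell type markers were read in the same way, and their part in the differences was not tested. Of 10 cardiomyocyte markers outside the 40 genes, 2 were higher and 4 lower (4 and 2 with the gene length correction), with a summed level of 5048 to 6027 CPM in control and 4028 to 5974 CPM in IDA hearts. Fibroblast markers gave 2 higher and 2 lower of 10 (3 and 3 with the correction), endothelial markers 5 and 4 of 10 (5 and 1), and smooth muscle markers other than *Des* 2 and 4 of 9 (3 and 2). Leukocyte markers gave 6 and 1 of 9, and with the correction 5 were higher. Skeletal muscle markers, 2 higher of 5 tested and neither of them with the correction, summed to at most 48.8 CPM in any heart. In whole hearts, fewer cells of a type and less RNA per cell cannot be told apart.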

How the data were processed

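The deposited values are raw read counts per gene with the exonic length, without normalization. The authors made them by featureCounts 1.4.5-p1, ignoring strand, from exonic pairs on mm10 (STAR alignments, deduplicated in samtools). In R 4.3.3, counts were scaled by TMM and tested with edgeR 4.0.16 (quasi-likelihood test, diet as the only factor, Benjamini-Hochberg adjustment) over 13590 genes that reached 1 CPM in 10 mice or more. DESeq2 1.42.0 was an alternative. The gene length correction subtracted a loess curve (span 0.5, degree 1) on log2 exonic length from each mouse, as offsets. Log2 CPM used a prior count of 2. Ratios and correlations were tested in Python with 100000 permutations, two-sided. Steps were tested on simulated data.

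The 40 genes, the other lists and the tests were chosen with earlier results of these data known. Genes were described in full by a rule: the extremes of each role, the 5 highest and 5 lowest log2 fold changes, *Ttn*, *Myh6*, *Myl2*, *Myl4*, *Myl7*, *Trim63*, *Fbxo32*, the 3 densest genes, and those without overlap in both analyses. Of the 23420 gene names, 2 occurred in duplicate and 27 had become dates. Tests within each run of column numbers, on raw counts, and of the length slope were added after the data were seen. Equal replicate numbers do not pair the mice.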

Additional observations from a re-analysis of the deposited data

Results flagged for a closer look

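Within each group of 10 mice, the highest and the lowest CPM of each of the 40 genes was compared with the rest of its group, in 80 groups, and 2 values stood apart. Chance sets about 1 in 20 such groups apart. *Myot* in IDA 4 had 169.4 CPM, against 69.6 to 90.0 CPM in the other 9 IDA mice. The same heart had 788 CPM of the slow myosin heavy chain *Myh7*, against 263 to 422 CPM in the others, while its summed skeletal muscle markers (16.2 CPM) lay within those of the other IDA mice (15.2 to 34.9 CPM). *Cmya5* in control 6 had 923.4 CPM, against 1037 to 1141 CPM in the other 9 control mice. In that heart *Ttn* (1852 CPM), *Xirp2* (626 CPM) and *Mypn* (347 CPM) were also the lowest of their group. Without control 6 the log2 fold change of *Cmya5* was -0.36 (edgeR, adjusted p = 0.000217).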

How the results depend on the processing

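The 40 genes were refitted under 17 alternatives and with each of the 20 mice left out. The cause of the changes was not tested. With library size alone, 23 genes were higher. With TMM factors from genes under 0.1 counts per base, 28 were higher and 4 lower, the median log2 fold change was 0.24, 42 of the other pathway genes were higher (27 by TMM), and 4 genes changed sign, *Mylk3* at 0.15, *Mypn* at 0.044, *Synpo2l* at 0.16 and *Pdlim5* at 0.12. Where edgeR and DESeq2 both had to give p below 0.01, 5 were higher (30.6% of all tested genes). With the gene length correction 12 were lower and 19 genes that were called in either analysis changed sign, *Ttn* at 0.57, *Myl2* at -0.22, *Myl3* at -0.17, *Actc1* at -0.14, *Tnnt2* at -0.17, *Tnni3* at -0.17, *Tnnc1* at -0.20, *Ldb3* at 0.30, *Tcap* at -0.16, *Csrp3* at -0.16, *Myoz2* at -0.12, *Mypn* at 0.19, *Synpo2l* at 0.17, *Pdlim5* at 0.40, *Flnc* at 0.48, *Xirp2* at 0.11, *Cmya5* at 0.33, *Myom1* at 0.30 and *Fbxo32* at 0.16. With a correction for length and counts per base, 14 of the 40 genes were higher and 17 lower (4253 and 3539 of all 13590 tested genes). The genes that changed sign by it were *Ttn* at 0.47, *Myl2* at -0.16, *Myl3* at -0.12, *Actc1* at -0.11, *Tnnt2* at -0.13, *Tnni3* at -0.13, *Tnnc1* at -0.16, *Lmod2* at -0.10, *Ldb3* at 0.072, *Tcap* at -0.12, *Csrp3* at -0.13, *Myoz2* at -0.088, *Mypn* at 0.035, *Nexn* at -0.093, *Pdlim5* at 0.25, *Fhl2* at -0.080, *Flnc* at 0.28, *Cmya5* at 0.10, *Myom1* at 0.064 and *Fbxo32* at 0.0064. With log2 library size as covariate, 3 were higher and 16 lower, the median was -0.053, and the genes that changed sign were *Myh6* at -0.10, *Myl2* at -0.017, *Myl3* at -0.024, *Actc1* at -0.072, *Tnnt2* at -0.074, *Tnni3* at -0.0093, *Tnnc1* at -0.0048, *Lmod2* at -0.091, *Actn2* at -0.031, *Tcap* at -0.020, *Csrp3* at -0.021, *Myoz2* at -0.0093, *Nexn* at -0.089 and *Des* at -0.010. With that covariate and the length correction, the median was -0.036 and 14 other pathway genes were higher. With the erythroid marker mean as covariate, 3 were higher and 4 lower (24.6% and 24.8% of all tested genes), and with the length correction 5 were lower and 12 other pathway genes higher. Without scaling, 3 were higher and 15 lower, the median was -0.019, 15 other pathway genes were higher, and *Nexn* was at -0.083. In the lower run of column numbers 20 were higher and 4 lower (median 0.18), and in the upper run 0 were higher (9 lower, median -0.079), 12 other pathway genes were higher, and *Myl3* at -0.011, *Actn2* at -0.032 and *Des* at -0.010 had changed sign. Without the filter on low counts, the length correction called 3 lower.

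The *Myom1* to *Myom2* difference was -0.026 and the *Fbxo32* to *Trim63* difference 0.073 with the length correction. With library size alone, r was -0.047 for *Trim63* and *Fbxo32* in IDA mice and -0.28 for *Xirp1* and *Xirp2* in control mice. Leaving out 1 mouse gave 5 to 18 higher genes (5 without control 8), 7 to 13 other pathway genes lower with the length correction (7 without control 3), and 0.0094 to 0.19 for *Myh6* over *Myh7* (highest without IDA 4). In those fits 70 of 800 single-gene results lost their call, 32 gained one and 0 changed sign with a call. With the replicate number as a block, 14 genes were higher and 6 lower (4584 and 4328 of all 13590 tested genes). Equal numbers did not mark deviations in common (r of -0.28 to 0.26, over 0.1 in 3 of 10 pairs, and 3 of 10 control mice correlated best with their own number). Sign changes of genes called in neither analysis are not listed. Counts level off at high density, which limits the range of the 21 genes at 1 count per base or more.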
